A study of Mus musculus with 2 samples.

Results

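The 40 genes described here are 30 immediate-early genes and 10 heat-shock genes, chosen by symbol from the 31053 genes counted in a single-cell RNA sequencing (scRNA-seq) study of mouse periodontal tissue. Both libraries came from wild-type (WT) C57BL/6 mice aged 8 weeks. One was made 7 days after a ligature was tied around a molar, which sets off ligature-induced periodontitis (LIP), and the other from untreated mice (control). Gingiva and the surface of the alveolar bone were taken from 5 LIP mice, and their cells were pooled into 1 library, and the number of control mice is not given in the sources used here. With 1 library per condition, a difference between the libraries has no replicate check and no p-value is given. Intervals are at 95%, come from the counts and cover counting error only. Each unique molecular identifier (UMI) counts 1 captured transcript, so a level is given as a percent of the UMIs of a group of cells, or for single genes as counts per 1000000 UMIs (CPM).

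Immediate-early genes are transcribed within minutes of a stimulus without new protein synthesis, and their transcripts are short-lived. Many encode transcription factors, among them the Fos and Jun proteins that pair as activator protein 1 (AP-1), the zinc-finger EGR and KLF factors and the NR4A nuclear receptors, and others encode proteins that switch the response off again. Heat-shock genes encode chaperones that keep proteins folded, and heat-shock factor 1 raises the inducible ones when proteins unfold. Both groups are known to respond to enzymatic tissue dissociation as well as to cytokines, wounding and growth factors in tissue. Here the tissue was digested with collagenase for 20 min at 37 °C, and for another 10 min after EDTA was added. The part of digestion in the levels below was not tested, since all cells of both libraries were digested.

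The members fall into 8 role groups. AP-1 and its partners hold 9 genes (*Fos*, *Fosb*, *Fosl1*, *Fosl2*, *Jun*, *Junb*, *Jund*, *Atf3*, *Maff*). The EGR group holds 3 (*Egr1*, *Egr2*, *Egr3*), the KLF group 3 (*Klf2*, *Klf4*, *Klf6*) and the NR4A group 3 (*Nr4a1*, *Nr4a2*, *Nr4a3*). Growth and early-response genes number 8 (*Ier2*, *Ier3*, *Ier5*, *Myc*, *Btg1*, *Btg2*, *Gadd45b*, *Gadd45g*), and 4 act in feedback (*Zfp36*, *Dusp1*, *Dusp2*, *Ppp1r15a*). The HSP70 chaperones and their cofactors number 6 (*Hspa1a*, *Hspa1b*, *Hspa8*, *Hsph1*, *Dnaja1*, *Dnajb1*), and other chaperones 4 (*Hsp90aa1*, *Hspb1*, *Hspe1*, *Hspd1*). All 40 members were placed on the GRCm38 build, on 15 chromosomes.

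The promoters were searched for the elements that these pathways are known to act through, since members that move together are compared below. RefSeq promoter windows (GRCm38.p6) were at hand for 33 of the 40 members, and the 250 bases before each start were read on both strands. None was found for *Egr1*, *Egr3*, *Fosl1*, *Ier2*, *Myc*, *Hspa8* and *Hsp90aa1*, which were not searched. The heat-shock element, searched as GAA, TTC and GAA with 2 bases of any kind between them, occurred in 2 of 8 heat-shock genes with a window and in 0.514% of all 27025 genes. Both were *Hspd1* and *Hspe1*, the mitochondrial chaperonin and its co-chaperonin, which are read in opposite directions from 1 shared stretch at chr1:55088053-55088082. This stretch lies before the RefSeq starts of both genes and in an untranslated exon of the GENCODE transcript Hspd1-202. It is shown as read towards each gene, with the overlapping matches in capitals.
Hspd1 (minus strand): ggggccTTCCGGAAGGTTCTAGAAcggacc
Hspe1 (plus strand): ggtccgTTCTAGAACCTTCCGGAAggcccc

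The CArG box, which binds serum response factor, was found in 2 of 25 immediate-early genes with a window (8.00%), against 1.62% of all genes. *Egr2* held 2 such boxes, at chr10:67537488-67537509 and chr10:67537791-67537812 on the plus strand, both inside longer annotated *Egr2* transcripts. *Zfp36*, whose protein destabilizes AU-rich transcripts, held 1 at chr7:28379271-28379292 on the minus strand, in an untranslated exon of Zfp36-201. The boxes are in capitals.
Egr2 (upstream box): tcttctCCTTTTTTGGaaagtc
Egr2 (downstream box): ctcagtCCATATATGGgcagcg
Zfp36: gccgccCCATAAAAGGagaaag

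The cyclic AMP response element, written TGACGTCA, occurred in 4 of the 25 immediate-early genes (16.0%), against 1.77% of all genes. They were *Btg2* (chr1:134079308-134079327, minus strand), *Dusp1* (chr17:26508602-26508621, minus strand), *Maff* (chr15:79347485-79347504, plus strand) and *Ppp1r15a* (chr7:45526269-45526286, minus strand). The AP-1 site, written TGAGTCA, matched in 0 of the 33 members and in 5.16% of all genes. A match describes the letters of the window and not a bound site. A gene without a match may hold an element outside the window or in another spelling, so absences are not read.
Btg2: caataaTGACGTCAgtgagc
Dusp1: ggcgggTGACGTCAccgccc
Maff: gggcggTGACGTCActgcat
Ppp1r15a: ctccggTGACGTCAgcac

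After filtering, 936 LIP and 883 control cells were kept, with medians of 5595 and 10845 UMIs per cell. The libraries shared 2 barcode sequences, 1 of them among the kept cells. Cells were clustered without the 40 members, and clusters were named from marker lists, so that 884 LIP and 838 control cells carried a name. Among the unnamed were 42 LIP and 8 control cells with a median of 775 UMIs, led by *Wfdc17* and *Ccl6*. A class was compared between libraries where each held at least 20 of its cells, which 8 classes did, from 27 LIP T-like cells to 323 LIP neutrophil-like cells. Erythroid-like cells (9 LIP, 12 control, medians of 18116 and 18921.5 UMIs) were read beside them. They were led by hemoglobin genes, whose share of the UMIs was not counted. In them the immediate-early genes summed to 0.0840% of UMIs in LIP and 0.00844% in control, and the heat-shock genes to 0.00981% and 0.000444%. All 8 compared classes lay above these levels for both sets in their own library. A percent of UMIs is low where a few other genes take up the counts, so these levels are not a background. The erythroid-like levels were higher in LIP than in control for both sets, on 9 and 12 cells.

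**Figure D1:**
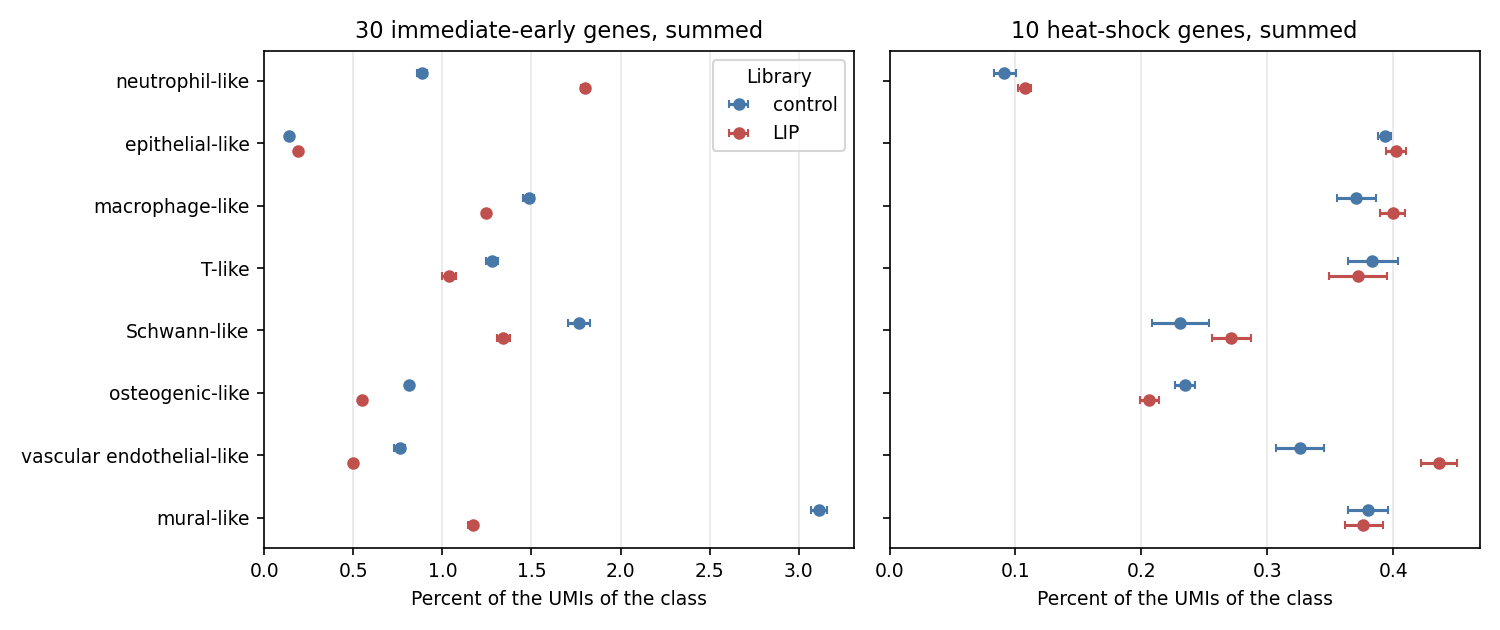
The horizontal axes give the percent of a class's UMIs that fell on the 30 immediate-early genes (left) and the 10 heat-shock genes (right), and the vertical axis lists the 8 classes. Points are the LIP and control libraries, and bars are 95% intervals of the counts. On the left the libraries lay apart in opposite directions, from 3.12% in control and 1.17% in LIP mural-like cells to 0.886% and 1.80% in neutrophil-like cells. On the right the libraries lay closer together, and neutrophil-like cells were the lowest class in both.

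Across all kept cells the immediate-early genes held 0.829% of the LIP UMIs and 0.587% of the control UMIs, a log2 ratio of LIP over control of 0.50 (0.48 to 0.51). The heat-shock genes held 0.308% and 0.327%, a log2 ratio of -0.09. These sums mixed classes that went opposite ways and were present in different numbers. In control, immediate-early genes were highest in mural-like cells (3.12%), the contractile cells around vessels, followed by Schwann-like cells (1.77%), macrophage-like cells (1.49%) and T-like cells (1.28%). Neutrophil-like (0.886%), osteogenic-like (0.813%) and vascular endothelial-like cells (0.760%) came next, and epithelial-like cells were lowest (0.138%). In LIP, neutrophil-like cells came first (1.80%), and the order went on through Schwann-like (1.34%), macrophage-like (1.25%), mural-like (1.17%), T-like (1.04%), osteogenic-like (0.548%), vascular endothelial-like (0.497%) and epithelial-like cells (0.191%). The intervals of neighbours in these orders did not overlap, with no library replicate behind them.

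The largest difference lay in mural-like cells (45 LIP, 46 control), where the immediate-early sum was 1.17% in LIP and 3.12% in control, a log2 ratio of -1.41 (-1.45 to -1.37). Of the 36 members with at least 50 UMIs over both libraries, 20 were at least 2-fold lower in LIP and 0 were 2-fold higher. Over all 3750 genes measured this way, 3.39% were lower and 3.87% were higher by that much. The median log2 ratio was -1.14 over the members and 0.05 over all genes. The 20 lower members took in each of the EGR and NR4A groups as far as measured, together with *Fos*, *Fosb*, *Jun* and *Atf3*. The median depth was close in both libraries, at 12344 UMIs in LIP and 12178.5 in control, and the median mitochondrial share was 6.46% and 7.41%.

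*Fos*, the best-known AP-1 subunit, was read at 1799 CPM in LIP and 6307 CPM in control mural-like cells, from 35 of 45 and 42 of 46 cells. Its log2 ratio was -1.81 (-1.91 to -1.71). *Fosb* had the lowest log2 ratio in this class, at 275 CPM in LIP and 1415 CPM in control (-2.36, -2.61 to -2.13). *Fos* transcripts were thus found in most cells of both libraries. *Atf3*, a stress-induced partner of Jun, stood at 500 CPM and 2327 CPM (-2.22). *Egr2* stood at 23.4 CPM and 96.5 CPM (-2.04), from only 15 and 57 UMIs. *Klf2*, which is known for its response to blood flow, stood at 269 CPM and 1019 CPM (-1.92).

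Both kinds of mural-like cells went the same way. The sub-cluster led by *Rgs5* and *Vtn*, genes of pericytes (22 LIP, 18 control cells), had an immediate-early sum of 0.572% in LIP and 2.50% in control (log2 -2.13, -2.21 to -2.04). Here 19 of 28 members were 2-fold lower and 0 higher, against 7.07% and 6.42% of all genes. *Klf4* stood at 26.7 CPM and 587 CPM (log2 -4.46) on 8 and 103 UMIs, and *Atf3* at 130 CPM and 1836 CPM (-3.82). *Gadd45g*, a growth-arrest gene, stood at 110 CPM and 1277 CPM (-3.54).

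The sub-cluster led by *Myh11* and *Tagln*, genes of smooth muscle (23 LIP, 28 control cells), had 1.70% in LIP and 3.38% in control (log2 -0.99, -1.04 to -0.95). In it 8 of 33 members were 2-fold lower and 0 higher, against 2.04% and 2.78% of all genes. The 8 were *Fos*, *Fosb*, *Jun*, *Atf3*, *Egr2*, *Klf2*, *Ier5* and *Dusp1*. *Fosb* had the lowest ratio here too, at 338 CPM and 1511 CPM (log2 -2.16). Not every member was lower in the *Rgs5*-led sub-cluster. *Ier3*, which counters cell death, stood at 501 CPM in LIP and 268 CPM in control there (log2 0.90, 0.42 to 1.41). *Hspb1*, a small chaperone that is abundant in muscle, stood at 571 CPM and 296 CPM there (0.94). Over the whole class *Ier3* was lower in LIP, at 533 CPM and 682 CPM (-0.36, -0.57 to -0.14). Of 27 immediate-early members measured over the class, 1 had a ratio above 0, *Maff* (0.41, -0.36 to 1.21).

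Neutrophil-like cells (323 LIP, 52 control) went the other way. The immediate-early sum was 1.80% in LIP and 0.886% in control, a log2 ratio of 1.02 (0.97 to 1.07). Of 30 members measured, 12 were 2-fold higher in LIP and 0 lower, against 12.3% and 3.07% of all genes. The median log2 ratio was 0.85 over the members and 0.03 over all genes. The limit of 50 UMIs was set on both libraries together, and LIP held more of the UMIs of this class. *Fosb*, *Jun*, *Maff*, *Nr4a3* and *Ppp1r15a* passed it through LIP, with 22, 29, 21, 20 and 43 UMIs in control. *Myc*, at 1 UMI in LIP and 5 in control, did not pass. The limit thus favoured genes high in LIP, among members and all genes alike. *Fosb* stood at 247 CPM in LIP and 47.2 CPM in control (log2 2.39, 1.77 to 3.08). *Ppp1r15a*, which restores translation after stress, stood at 444 CPM and 92.3 CPM (2.27). The nuclear receptor gene *Nr4a3* stood at 174 CPM and 42.9 CPM (2.02).

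Of these 12, the members with the most transcripts were *Gadd45b*, *Dusp1* and *Ier3*, genes of growth arrest, feedback and survival. *Gadd45b* was read at 1972 CPM in LIP and 521 CPM in control (log2 1.92), from 267 of 323 and 29 of 52 cells. *Dusp1*, a phosphatase that switches off MAP kinases, was read at 1741 CPM and 549 CPM (1.67). *Ier3* was read at 1198 CPM and 476 CPM (1.33). *Fos* itself differed little here, at 354 CPM and 275 CPM (0.37, 0.09 to 0.66).

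The make-up of the neutrophil-like cells moved with this difference. Cells of the sub-cluster led by *Acod1* and *Ccl3*, genes of activated neutrophils, were 275 of the 323 LIP cells and 29 of the 52 control cells. Cells led by *Ltf* and *Ngp*, granule genes of younger neutrophils, were 48 and 23. The immediate-early genes held 2.67% of the UMIs of the *Acod1*-led cells in LIP and 2.37% in control, a log2 ratio of 0.17 (0.12 to 0.23). In the *Ltf*-led cells they held 0.441% and 0.347% (0.34, 0.25 to 0.44). The gap between the sub-clusters was thus wider than the gap between the libraries within either. With both sub-clusters weighted alike the log2 ratio of the class was 0.20, an alternative added after the data were seen.

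Within the *Acod1*-led cells 3 of 29 members were 2-fold higher in LIP and 0 lower, against 11.2% and 7.75% of all genes, so the share of members higher was near the background. The 3 were *Fosb* (397 CPM and 169 CPM, log2 1.23), *Jun* (316 CPM and 137 CPM, 1.21) and *Ppp1r15a* (724 CPM and 346 CPM, 1.06). Within the *Ltf*-led cells 2 of 19 were higher and 0 lower, against 2.28% and 0.683%. They were *Nr4a1*, at 151 CPM and 61.4 CPM (1.30), and *Gadd45b*, at 69.4 CPM and 23.4 CPM (1.57). Depth moved with the immediate-early share as well. From the shallowest to the deepest of 3 groups, near equal in size, of control neutrophil-like cells the share was 3.25%, 1.28% and 0.295%, at medians of 3190, 6564 and 15361 UMIs. The *Acod1*-led cells had medians of 3597 UMIs in LIP and 3741 in control, and the *Ltf*-led cells of 11206.5 and 12603, and the part of depth was not tested.

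**Figure D2:**
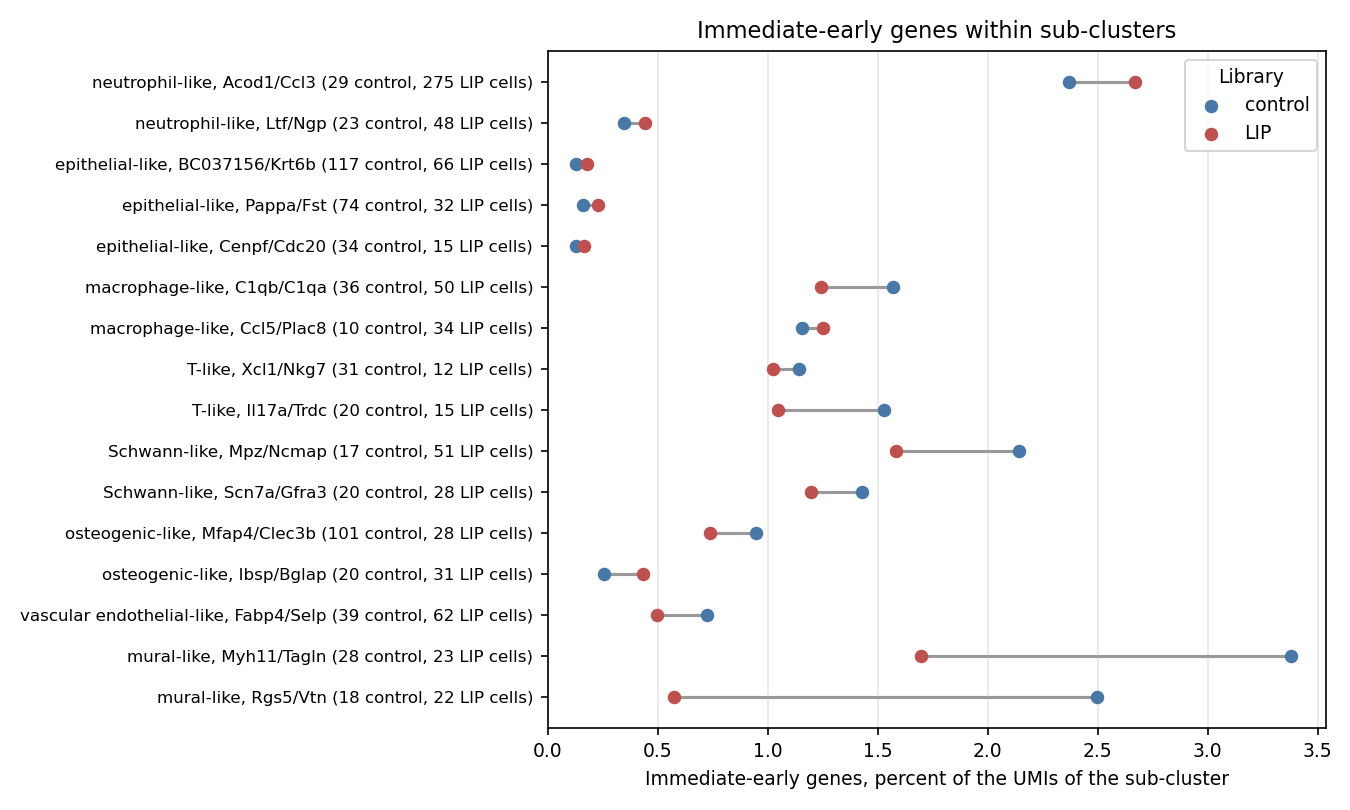
The horizontal axis gives the percent of a sub-cluster's UMIs that fell on the 30 immediate-early genes, in sub-clusters with at least 10 cells in each library, and each line joins the 2 libraries of a sub-cluster. Both mural-like sub-clusters lay far lower in LIP (1.70% against 3.38% and 0.572% against 2.50%), while the 2 neutrophil-like sub-clusters lay far from each other and the libraries lay close within each.

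Epithelial-like cells (113 LIP, 225 control), the deepest of the compared classes, had the lowest immediate-early level in both libraries and a higher one in LIP (0.191%) than in control (0.138%), a log2 ratio of 0.47 (0.42 to 0.52). Of 33 members 6 were 2-fold higher and 0 lower, against 2.42% and 1.41% of all genes. *Fos* was read at 150 CPM in LIP and 32.9 CPM in control (log2 2.19, 1.94 to 2.44), from 41 of 113 and 59 of 225 cells. Of its 394 LIP UMIs, 104 came from 1 cell. *Atf3* was read at 19.4 CPM and 4.05 CPM (2.26) and *Fosb* at 43.4 CPM and 10.1 CPM (2.11). *Ier3* (1.33), *Dusp1* (1.30) and *Jun* (1.02) completed the 6.

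The 3 epithelial-like sub-clusters went the same way. The immediate-early sum was 0.178% and 0.130% in cells led by *BC037156* and *Krt6b*, 0.230% and 0.159% in cells led by *Pappa* and *Fst*, and 0.164% and 0.128% in dividing cells led by *Cenpf* and *Cdc20*. The median cell held 0.127% and 0.107%, 0.173% and 0.136%, and 0.126% and 0.122% in these sub-clusters. The tenth of cells with the most such UMIs held 44.4%, 43.9% and 36.0% of them in LIP, against 29.7%, 26.7% and 22.5% in control. Those cells were picked by UMI count, so their share also rises where depth is uneven. The matching heat-shock shares were 32.1%, 20.9% and 19.6% in LIP, against 23.0%, 18.0% and 19.3% in control. In the *BC037156*-led cells the heat-shock levels were close, at 0.391% in LIP and 0.388% in control. The immediate-early shares thus do not place the difference in the upper cells, and the part of the upper cells was not tested. In the same order of sub-clusters, the log2 ratio of *Fos* was 1.92, 2.61 and 1.63, and that of *Dusp1* was 1.25, 1.04 and 2.22. Of the 33 members 27 had a ratio above 0. *Klf4*, a factor of keratinocyte differentiation, had the lowest, at 92.4 CPM in LIP and 133 CPM in control (log2 -0.53, -0.74 to -0.32). The libraries stood apart in quality here. In the 38 LIP cells with the fewest UMIs the median was 2029.5 UMIs, against 18547 in the 75 such control cells, and in those with the lowest mitochondrial share the median share was 0.555% and 3.60%. The immediate-early level was 0.239% in the LIP cells with the lowest mitochondrial share and 0.154% in those with the highest, against 0.134% and 0.134% in control, and the part of these differences in the ratio was not tested. The erythroid-like levels were also higher in LIP, and whether the low levels of this class share a source with them was not tested either.

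Osteogenic-like cells (59 LIP, 121 control), which took in cells led by fibroblast genes and cells led by osteoblast genes, had an immediate-early sum of 0.548% in LIP and 0.813% in control (log2 -0.57, -0.61 to -0.53). Of 36 members 1 was 2-fold higher and 5 were lower, against 3.78% and 8.20% of all genes, and the median log2 ratio was -0.40 over the members and -0.17 over all genes. The lower ones were *Hspa1b* (16.0 CPM and 132 CPM, -3.04), *Hspa1a* (19.7 CPM and 84.1 CPM, -2.09), *Klf4* (-1.20), *Btg2* (-1.11) and *Atf3* (-1.03). *Hspa1a* and *Hspa1b* are near-identical inducible HSP70 genes, so the split of reads between them is uncertain. *Egr2* was the higher one, at 35.0 CPM and 11.1 CPM (1.66, 0.80 to 2.60), from 11 of 59 and 10 of 121 cells.

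The 2 osteogenic-like sub-clusters went opposite ways, and a different one held most cells in each library. Cells led by *Mfap4* and *Clec3b*, fibroblast genes, were 28 in LIP and 101 in control, with 0.736% and 0.946% (log2 -0.36, -0.41 to -0.31). Cells led by *Ibsp* and *Bglap*, osteoblast genes, were 31 in LIP and 20 in control, with 0.435% and 0.255% (0.77, 0.65 to 0.89).

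In the *Ibsp*-led cells 8 of 25 members were 2-fold higher in LIP and 0 lower, against 5.90% and 8.03% of all genes. The least number of UMIs was set on both libraries together, and LIP held 855090 UMIs of these cells and control 259371. The limit thus favoured genes high in LIP here too, among members and all genes alike. *Fos* was read at 826 CPM in LIP and 96.4 CPM in control (log2 3.1, 2.52 to 3.74), *Egr1*, an early zinc-finger factor, at 357 CPM and 61.7 CPM (2.53), and *Gadd45b* at 182 CPM and 27.0 CPM (2.76). The control values rested on few UMIs, 25 for *Fos*, 16 for *Egr1* and 7 for *Gadd45b*. The cell in the middle of this sub-cluster held 0.287% in LIP and 0.238% in control, while the cell at the 90th percentile held 0.973% and 0.328%, so the difference lay mostly in the upper cells. Median depth also differed, at 25670 and 12931 UMIs, and its part was not tested.

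In the *Mfap4*-led cells 1 of 32 members was 2-fold higher and 3 were lower, against 3.33% and 6.56% of all genes. *Myc*, a growth regulator, was the higher one, at 91.1 CPM in LIP and 30.1 CPM in control (log2 1.60, 0.92 to 2.29). *Gadd45g* (77.5 CPM and 214 CPM, -1.46), *Hspa1a* (-1.55) and *Hspa1b* (-2.27) were the lower ones.

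**Figure D3:**
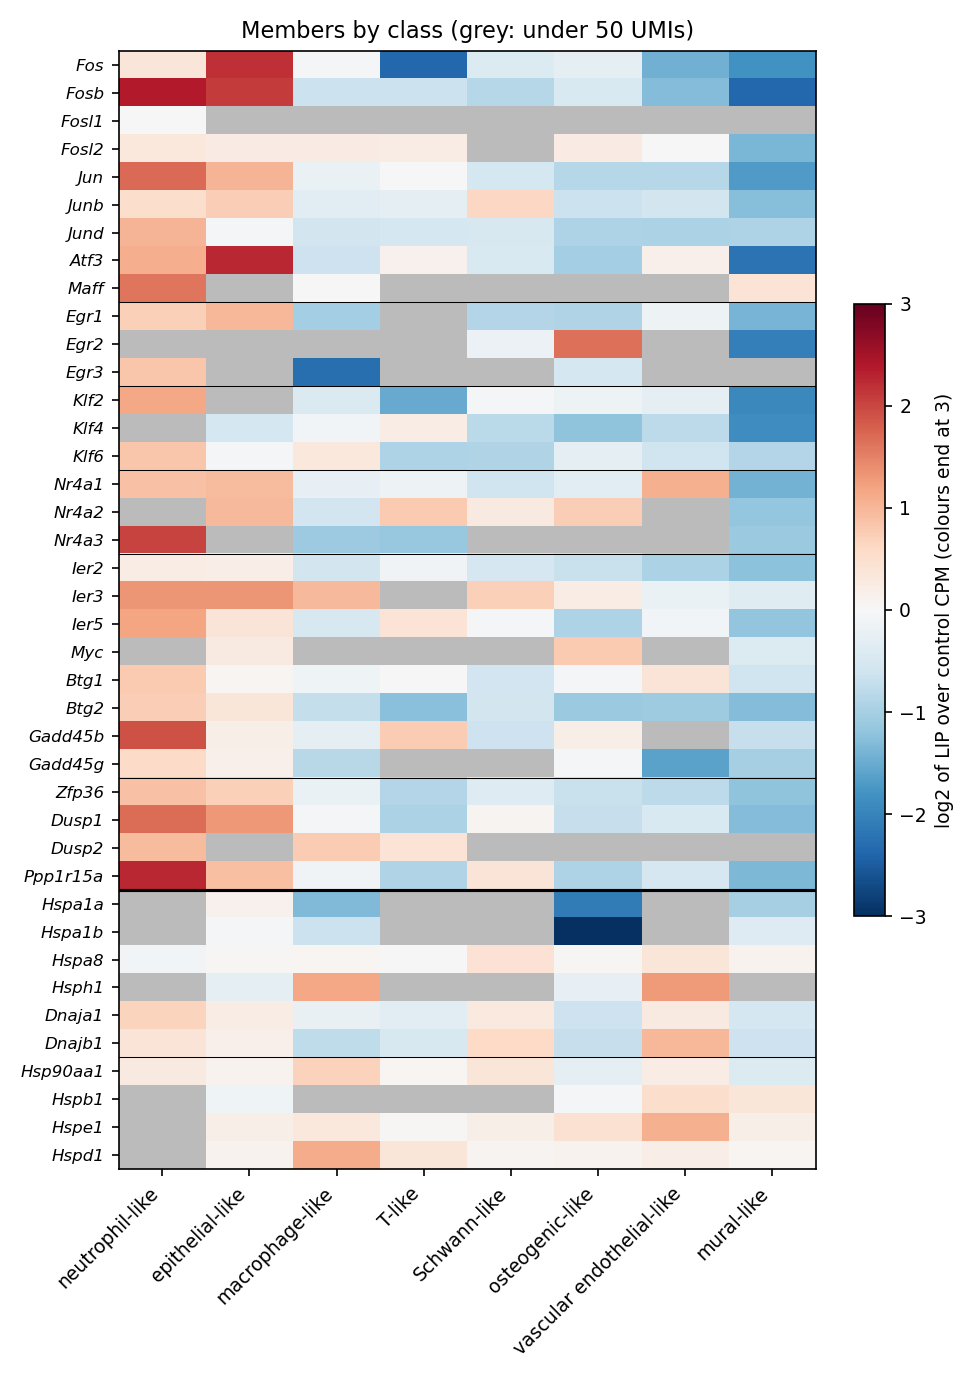
Each row is a member, grouped by role with the 10 heat-shock genes below the thick line, each column is a class, and the colour is the log2 ratio of LIP over control CPM, from blue (lower in LIP) to red (higher in LIP) and saturated at 3 in either direction, with grey where a gene had fewer than 50 UMIs over both libraries. Red runs down the immediate-early rows of neutrophil-like and epithelial-like cells and blue down those of mural-like cells, while most of the heat-shock part is paler. Among its exceptions are *Hspa1b* (-3.04) and *Hspa1a* (-2.09) in osteogenic-like cells.

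In macrophage-like cells (84 LIP, 46 control) the immediate-early sum was 1.25% in LIP and 1.49% in control (log2 -0.25, -0.29 to -0.22). Of 36 members 2 were 2-fold higher and 4 lower, against 8.22% and 3.76% of all genes. The EGR group was the lowest, at 0.0390% and 0.0810% (log2 -1.05), with *Egr1* at 366 CPM and 740 CPM (-1.02) and *Egr3* at 12.2 CPM and 58.4 CPM (-2.26) on 19 and 35 UMIs. *Nr4a3* (-1.09) and *Hspa1a* (-1.32) were also lower. *Ier3* stood at 758 CPM and 387 CPM (0.97), just under 2-fold. The sub-clusters split here too, with 1.24% and 1.57% in cells led by *C1qb* and *C1qa*, complement genes (log2 -0.34), and 1.25% and 1.15% in the 34 LIP and 10 control cells led by *Ccl5* and *Plac8* (0.12, 0.03 to 0.20).

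In T-like cells (27 LIP, 51 control) the sum was 1.04% and 1.28% (log2 -0.30, -0.37 to -0.23). Of 28 members 0 were 2-fold higher and 4 lower, against 8.46% and 5.27% of all genes. *Fos* stood out, at 146 CPM in LIP and 750 CPM in control (log2 -2.36, -2.88 to -1.88), from 16 of 27 and 32 of 51 cells. *Klf2*, which holds T cells in a resting and circulating state, stood at 61.9 CPM and 177 CPM (-1.52) on 17 and 67 UMIs. *Btg2* (-1.25) and *Nr4a3* (-1.13) were the others. *Junb*, the member with the most T-like transcripts, differed less, at 2404 CPM and 2912 CPM (-0.28).

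In vascular endothelial-like cells (79 LIP, 48 control) the immediate-early sum was 0.497% and 0.760% (log2 -0.61, -0.68 to -0.54). Of 29 members 3 were 2-fold higher and 4 lower, against 5.32% and 3.11% of all genes. *Gadd45g* (100 CPM and 304 CPM, log2 -1.60), *Fos* (392 CPM and 1069 CPM, -1.45), *Fosb* (-1.31) and *Btg2* (-1.07) were lower. The higher ones were the NR4A receptor *Nr4a1* (79.5 CPM and 37.7 CPM, 1.08) and the chaperone genes *Hsph1* and *Hspe1*, described with the heat-shock genes. The highest levels of *Klf2* and *Klf4*, flow-responsive factors of endothelium, were read in this class in both libraries, though control mural-like cells came close for *Klf2* (1019 CPM). For *Klf4*, control osteogenic-like (517 CPM) and LIP macrophage-like cells (310 CPM) came close. *Klf2* stood at 866 CPM in LIP and 1043 CPM in control, and *Klf4* at 321 CPM and 556 CPM, log2 ratios of -0.27 (-0.45 to -0.08) and -0.79 (-1.06 to -0.52).

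In Schwann-like cells (103 LIP, 37 control), the glia of peripheral nerves, the sum was 1.34% and 1.77% (log2 -0.39, -0.46 to -0.33). Of 28 members 0 were 2-fold higher and 0 lower, against 3.74% and 3.70% of all genes. *Fos* was read at 3785 CPM and 5056 CPM (-0.42), *Egr1* at 1005 CPM and 1850 CPM (-0.88) and *Junb* at 1534 CPM and 994 CPM (0.63). A sub-cluster with few UMIs, led by *Mbp* and *Prx* at a median of 899 UMIs, held 24 LIP cells and 0 control cells.

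Single cells of a class did not carry these transcripts evenly. In LIP Schwann-like cells the median cell held 0.174% of its UMIs in immediate-early genes and the 90th percentile 3.38%. The 11 cells with the most such UMIs held 66.7% of those of all 103 cells. In control the median was 0.278%, the 90th percentile 5.62%, and the top 4 of 37 cells held 61.3%. In *Fos* terms, 38 of 103 LIP and 19 of 37 control Schwann-like cells had any UMI. Among the 8 compared classes, neutrophil-like cells of the LIP library were the evenest, with a median of 2.41% and with 21.8% of the immediate-early UMIs in the top 33 of 323 cells.

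Mural-like cells differed over their whole range. The median cell held 0.576% in LIP and 2.46% in control, the 10th percentile 0.140% and 0.322%, and the 90th percentile 3.92% and 6.40%. In osteogenic-like cells the medians went against the sums, at 0.346% in LIP and 0.292% in control, while the 90th percentiles were 1.58% and 2.25%. The log2 ratio of the sum of this class was -0.57. It was -0.084 with each cell weighing the same and -0.036 with both sub-clusters weighted alike. The parts of upper cells, depth and sub-cluster mix in the sum were not tested.

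**Figure D4:**
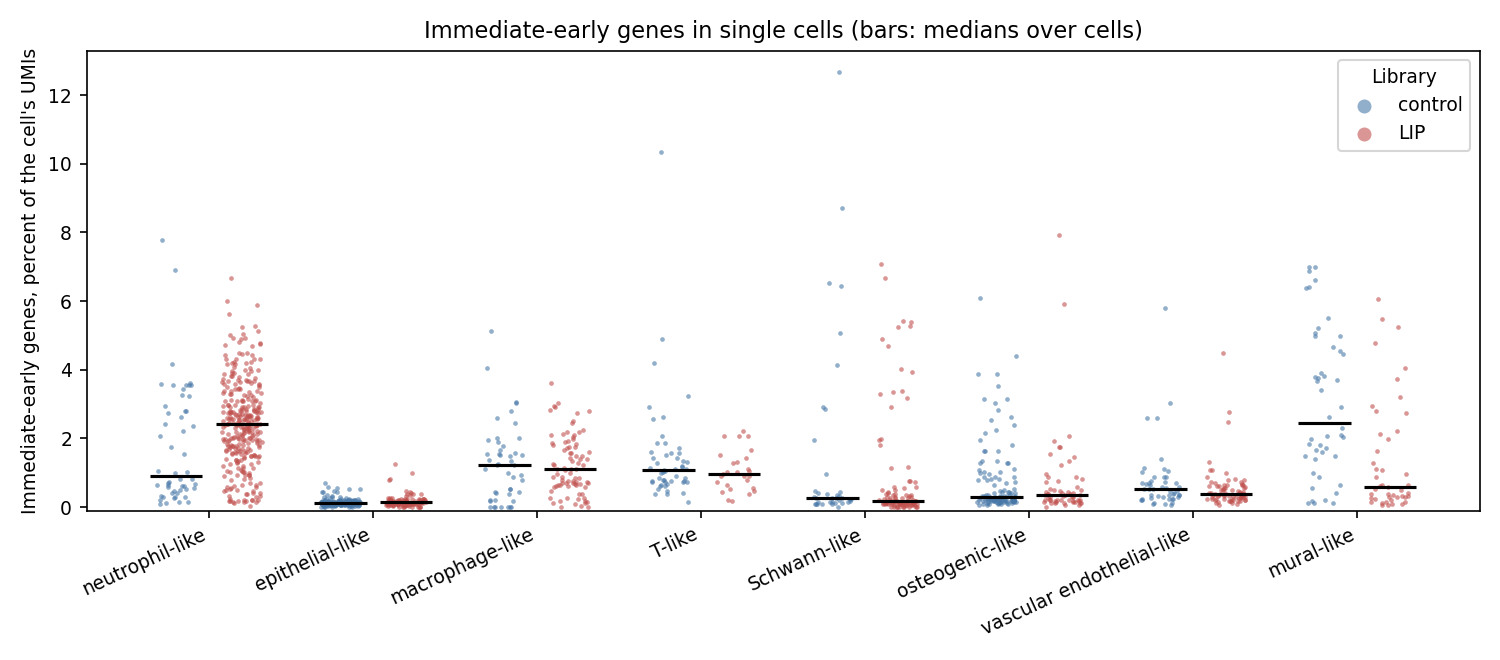
Each point is a cell, the vertical axis gives the percent of its UMIs in the 30 immediate-early genes, and bars mark the medians over cells. Schwann-like and osteogenic-like cells had a dense base and a few cells far above it, while LIP neutrophil-like cells spread around a median of 2.41% and mural-like cells around 2.46% in control and 0.576% in LIP.

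Heat-shock genes followed another pattern. In control they were highest in epithelial-like (0.393%), T-like (0.383%), mural-like (0.380%) and macrophage-like cells (0.371%), and these neighbours overlapped in their intervals. Vascular endothelial-like cells followed at 0.326%, osteogenic-like at 0.235% and Schwann-like at 0.230%, and neutrophil-like cells were lowest at 0.0912%. *Hspa8*, the constitutive HSP70, held 41.2% of all heat-shock UMIs, *Hspb1* 14.3%, *Hsp90aa1* 13.3% and *Hspe1* 10.8%. The inducible *Hspa1a* and *Hspa1b* held 1.31% and 2.75%. Of the immediate-early UMIs *Junb* held 11.4%, *Fos* 10.5%, *Btg1*, an antiproliferative gene, 8.29% and *Jund* 7.57%.

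Between the libraries the log2 ratio of the heat-shock sum ran from -0.19 in osteogenic-like to 0.42 in vascular endothelial-like cells. The interval of the ratio held 0 in epithelial-like (0.03), T-like (-0.04) and mural-like cells (-0.01). It lay above 0 in macrophage-like (0.11, 0.04 to 0.18), neutrophil-like (0.23, 0.08 to 0.39) and Schwann-like cells (0.24, 0.07 to 0.40), and below 0 in osteogenic-like cells (-0.19, -0.26 to -0.11). These signs did not hold under every processing. The osteogenic-like sign turned with TMM scaling (0.03), the macrophage-like sign with a mitochondrial limit of 5% (-0.09), and the neutrophil-like sign with both sub-clusters weighted alike (-0.13). *Hspa8* was close in both libraries of most classes, with log2 ratios from -0.08 in neutrophil-like to 0.42 in Schwann-like cells, and in mural-like cells it stood at 1660 CPM and 1548 CPM (0.10, -0.03 to 0.23).

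In vascular endothelial-like cells the heat-shock sum was 0.436% in LIP and 0.326% in control (log2 0.42, 0.33 to 0.52), and 1 LIP cell carried much of it. That cell held 1003 of the 3789 heat-shock UMIs of its class (26.5%), 684 of them of *Hspb1*, and 4.03% of its own UMIs were heat-shock. Without the top cell of each library the levels were 0.330% and 0.320% and the log2 ratio 0.04. *Hspe1* was 2-fold higher in this class, at 297 CPM and 142 CPM (1.07, 0.62 to 1.54), and was found in 60 of 79 LIP and 24 of 48 control cells. *Hspd1*, on the other side of the shared stretch shown above, stood at 102 CPM and 89.8 CPM (0.19, -0.41 to 0.83).

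In macrophage-like cells it was *Hspd1* that was 2-fold higher, at 169 CPM and 78.5 CPM (1.11, 0.66 to 1.59), while *Hspe1* stood at 352 CPM and 284 CPM (0.31, 0.06 to 0.57). The *Hspd1* value was -0.10 when 15 dimensions were used for clustering. *Hsph1*, a nucleotide exchange factor of HSP70, was higher in both classes on few UMIs, 58 and 10 in macrophage-like and 43 and 7 in vascular endothelial-like cells. In neutrophil-like cells *Hspd1* and *Hspe1* were barely read, at 14 and 12 UMIs in LIP and 5 and 7 in control. The most *Hspb1* was read in 3 of the compared classes, at 1426 CPM in LIP vascular endothelial-like, 925 CPM in mural-like and 823 CPM in epithelial-like cells, against 72.6 CPM or less in the other 5. The first value rests largely on 1 cell, which held 684 of the 1238 *Hspb1* UMIs of the LIP class. In control the 3 classes stood at 994 CPM, 718 CPM and 893 CPM in the same order.

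Seen gene by gene, the direction of a member depended on the class. *Fos* had at least 50 UMIs in all 8 classes, was 2-fold higher in 1 (epithelial-like) and 2-fold lower in 3 (mural-like, T-like and vascular endothelial-like). *Fosb* was higher in 2 and lower in 2. *Btg2*, which holds back the cell cycle, was 2-fold lower in 4 classes and higher in 0. *Dusp1* was higher in 2 and lower in 1, and *Ier3* was higher in 2 of 7 and lower in 0. Among the 4 genes that hold a cyclic AMP response element, *Btg2*, *Dusp1* and *Ppp1r15a* were each 2-fold lower in mural-like cells (-1.30, -1.31 and -1.35), and *Maff* was not (0.41, -0.36 to 1.21). This is close to the 19 of 27 immediate-early members (70.4%) that were 2-fold lower there, so nothing is read from the element. The same 3 were higher in neutrophil-like cells by 0.75 (under 2-fold), 1.67 and 2.27, and *Maff* by 1.61. All 26 immediate-early members measured there lay above 0 and 12 were 2-fold higher, so nothing is read from the element there either.

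Among genes outside the 40, a list of 28 further early-response genes, chosen with results of these data known, went to the same side as the members in some classes and not in others. In neutrophil-like cells 9 of 23 were 2-fold higher and 0 lower, against 12.3% and 3.07% of all genes. *Tnfaip3* (1.82) and *Nfkbia* (1.69), inhibitors of NF-κB, were at the top, and the median was 0.96. This list and those below were read over whole classes, and the sub-cluster mix of neutrophil-like cells differed between the libraries. The part of that mix in these values was not tested. In mural-like cells 0 of 19 were higher and 3 lower, against 3.87% and 3.39% of all genes. The median there was -0.71, with *Sgk1* lowest (-1.22). In epithelial-like cells 5 of 23 were higher, led by *Phlda1* (1.94), and 0 lower, against 2.42% and 1.41% of all genes. In macrophage-like cells 3 of 24 were higher and 1 lower, against 8.22% and 3.76% of all genes, so the share higher was not far above the background. The median there was 0.14, where the members had a median of -0.24. In osteogenic-like cells 2 of 21 were higher and 0 lower, against 3.78% and 8.20% of all genes. Schwann-like cells had 2 of 17 higher and 1 lower, against 3.74% and 3.70%. T-like cells had 1 of 15 in each direction, against 8.46% higher and 5.27% lower of all genes. Vascular endothelial-like cells had 0 of 18 higher and 1 lower, against 5.32% and 3.11%. Of 20 further heat-shock and chaperone genes, at most 2 per class passed 2-fold in either direction. Counts of 1 or 2 genes are too small to set against the shares of all genes. Of 15 kinases and factors upstream, *Crem*, a cyclic AMP-responsive repressor, was higher in neutrophil-like (2.30) and T-like cells (1.04). It was the lowest of that list in macrophage-like (-0.31) and osteogenic-like cells (-0.77). Of 11 endoplasmic reticulum stress genes, 8 were measured in neutrophil-like cells. There 2 were 2-fold higher and 0 lower, against 12.3% and 3.07% of all genes. They were *Hspa5* and *Herpud1* (1.12 and 1.12), and *Hsp90b1* was lowest (-0.42). *Herpud1* was the lowest of this list in macrophage-like (-0.83) and vascular endothelial-like cells (-0.73). In epithelial-like cells 1 of 10 was higher, and in osteogenic-like cells 1 of 10 was lower.

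Among the genes whose levels most followed the immediate-early sum over 17 groups of class and library with at least 20 cells were *Sertad1* (Pearson's r = 0.96), *Irf1* (0.89), *Ccnl1* (0.88) and *Coq10b* (0.87), of 6179 genes ranked. The groups share 2 libraries and their processing, so these are descriptions with no p-value. Both sets were also compared cell by cell within a class. At 1000 UMIs per cell Spearman's rho between both sets ran from -0.19 in LIP T-like cells to 0.47 in LIP osteogenic-like cells. Of the 16 groups of class and library, the cells with the highest mitochondrial share had a lower immediate-early share than those with the lowest in 11 and a higher one in 5. In mural-like cells it was higher, at 1.61% against 0.681% in LIP and 3.76% against 2.38% in control. The part of mitochondrial share in the library difference was not tested.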

How the data were processed

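The authors aligned 10x Genomics 3′ v3 reads to mm10 with Cell Ranger (3.1.0 in the matrix header) and deposited the UMI counts of genes by barcode without normalization. Barcodes with 200 to 7500 genes, at most 60000 UMIs and at most 10% mitochondrial UMIs were kept, which left 10560109 UMIs in LIP and 13407122 in control cells. Both libraries were joined by canonical correlation and their cells grouped in Seurat 5.3.0 under R 4.3.3 (2000 variable features without the members, 30 dimensions, resolution 0.1, sub-clusters at 0.2). A cluster was named from lists for 20 cell classes and needed at least 3 markers, each in 25% of its cells and more than 2-fold above the rest. The 52 LIP and 45 control cells of 2 unnamed sub-clusters were left out. Scrublet (scanpy 1.11.5) marked 1 LIP and 4 control cells, under 0.5%, so it says little of doublets. Marked cells were kept. UMIs were summed per class and library, and log2 ratios carry exact conditional 95% intervals. A sum of 0 was set against a floor of 3 counts. Members named in full were the 3 highest and 3 lowest log2 ratios per class and those with the most UMIs of a role group. Others, and all in sub-clusters, were chosen after their values were seen. The members, lists and comparisons were chosen with earlier results of these data known. The code was tested on simulated data, and Python 3.11.15 and edgeR 4.0.16 (TMM factors) were used. A gene ranked among those most like the immediate-early sum is not reported here.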

Additional observations from a re-analysis of the deposited data

Results flagged for a closer look

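The immediate-early sum stood apart in opposite directions in mural-like cells (log2 ratio of LIP over control -1.41) and neutrophil-like cells (1.02), which are the classes at either end of the 8. The heat-shock sum was lowest in osteogenic-like cells (-0.19) and highest in vascular endothelial-like cells (0.42). Within macrophage-like cells the immediate-early sum was -0.34 in the sub-cluster led by *C1qb* and *C1qa* and 0.12 in that led by *Ccl5* and *Plac8*. Within osteogenic-like cells it was -0.36 in the sub-cluster led by *Mfap4* and *Clec3b* and 0.77 in that led by *Ibsp* and *Bglap*. These differences between groups of cells were not tested, since each rests on 1 library per condition.

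Barcodes left out for more than 10% mitochondrial UMIs also held member transcripts. Immediate-early genes made up 0.299% of their UMIs in LIP (179 barcodes) and 0.627% in control (109 barcodes), and heat-shock genes 0.216% and 0.253%. Barcodes with fewer than 200 genes held 0.0106% and 0.00977% in immediate-early genes. They were 73 in LIP with 584160 UMIs in all and 161 in control with 972621. Many UMIs thus fell on few genes, and these levels are not a background.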

How the results depend on the processing

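No paired analysis was possible because each condition had 1 library, and no library could be left out. All values below are log2 ratios of LIP over control. The immediate-early sums of the 8 classes kept their sign under every alternative run, while heat-shock sums turned in some. With a mitochondrial limit of 5% the immediate-early sum was -0.18 in Schwann-like, 0.79 in epithelial-like, -0.19 in macrophage-like, -1.62 in mural-like, -0.82 in osteogenic-like and -0.53 in vascular endothelial-like cells, and the heat-shock sum -0.23 in T-like, -0.088 in macrophage-like and -0.018 in osteogenic-like cells, with osteogenic-like *Myc* at -0.041. With a limit of 20% the immediate-early sum was -0.60 in Schwann-like, -1.32 in mural-like and -0.74 in osteogenic-like cells, and the osteogenic-like heat-shock sum -0.062. With the members among the clustering features the immediate-early sum was 1.08 (neutrophil-like) and -0.77 (osteogenic-like), and the osteogenic-like heat-shock sum -0.052. At a resolution of 0.3 osteogenic-like cells had -0.91 and -0.053 for both sums, and *Myc* -0.26. With 15 dimensions the immediate-early sum was 0.63 in epithelial-like and 1.16 in neutrophil-like cells, and the heat-shock sum -0.0061 in epithelial-like, -0.045 in macrophage-like, -0.045 in osteogenic-like and 0.56 in vascular endothelial-like cells, with macrophage-like *Hspd1* at -0.096.

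With each cell weighing the same the immediate-early sum was -0.80 in Schwann-like, -0.49 in T-like, 0.35 in epithelial-like, -0.036 in macrophage-like, -1.12 in mural-like, 0.47 in neutrophil-like, -0.084 in osteogenic-like and -0.49 in vascular endothelial-like cells. The heat-shock sum was then -0.18 in T-like, 0.11 in epithelial-like, 0.19 in macrophage-like, -0.027 in neutrophil-like, -0.088 in osteogenic-like and 0.22 in vascular endothelial-like cells, with Schwann-like *Ier3* at -0.049 and epithelial-like *Hspb1* at 0.56. Thinned to 1000 UMIs per cell, the immediate-early sum was -0.59 in Schwann-like, -0.47 in T-like, 0.53 in epithelial-like, -0.067 in macrophage-like, -1.11 in mural-like, -0.032 in osteogenic-like and 0.43 in neutrophil-like cells. The heat-shock sum was -0.40 in T-like, 0.095 in epithelial-like, 0.22 in macrophage-like, -0.20 in mural-like, -0.16 in neutrophil-like and 0.15 in vascular endothelial-like cells.

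TMM factors shifted every gene of a class alike, by 0.21 (osteogenic-like), 0.19 (neutrophil-like) and 0.15 (Schwann-like), and by less than 0.1 in the rest. The immediate-early sum became -0.25 in Schwann-like, -0.37 in T-like, -0.35 in osteogenic-like and 1.21 in neutrophil-like cells, and the heat-shock sum 0.42 (neutrophil-like) and 0.029 (osteogenic-like). With mitochondrial, ribosomal protein and hemoglobin genes out of the totals, the immediate-early sum was -0.42 in T-like and -0.33 in macrophage-like cells, and the heat-shock sum -0.17 in T-like, -0.00062 in epithelial-like and 0.036 in macrophage-like cells.

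The alternatives of this paragraph were chosen after seeing the data. With sub-clusters weighted alike the immediate-early sum was -0.13 in macrophage-like, -1.37 in mural-like, -0.036 in osteogenic-like and 0.20 in neutrophil-like cells, and the heat-shock sum 0.26, -0.13 and 0.014 in macrophage-like, neutrophil-like and osteogenic-like cells. It gave no value for vascular endothelial-like cells, where a sub-cluster had 9 control cells. Without the cell with the most UMIs of a set in each library, the immediate-early sum was -0.22 in Schwann-like, -0.38 in T-like, 0.41 in epithelial-like, -1.48 in mural-like, -0.63 in osteogenic-like and 1.07 in neutrophil-like cells, and the vascular endothelial-like heat-shock sum 0.045.

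Over the 8 classes 24 member values were 2-fold higher and 37 lower, against 38 and 56 with at least 1 UMI in place of 50. Shares over all genes were counted by class, as given above, and not for these totals, so nothing is read from the totals. Classes of 27 to 59 cells in a library limit what these sums can show. Apart from the construction of each alternative, the cause of these changes was not tested.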

Other observations

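Of the classes with too few cells to compare, B-like cells (19 LIP, 154 control) held 0.871% of their UMIs in immediate-early genes in LIP and 1.05% in control. Chondrocyte-like cells (7 LIP, 11 control) held 1.82% and 1.68%, and salivary or mucous-like cells (11 LIP, 16 control) 0.348% and 0.278%. Lymphatic endothelial-like cells (5 LIP, 19 control) held 0.384% and 0.732%, where the control cell at the 90th percentile held 0.642%, below the level of the sum.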
